A study of Mus musculus with 16 samples.

Results

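The methionine response of a gene was taken as its level with methionine minus its level without it, on the log2 scale. The comparison described here asked where that response differed between melanoma supernatant and fresh medium. The quantity tested, called the interaction, was the response in supernatant minus the response in fresh medium. A positive interaction means that methionine raised the gene more, or lowered it less, in supernatant. All 16 libraries entered, and the members were the 12469 of 17159 genes (72.7%) with a mean of at least 10 depth-normalized reads over these libraries, so the choice did not use the contrast.

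The libraries held RNA of C57BL/6 mouse CD8+ T cells, 4 libraries for each of 4 media. The cells had received anti-CD3/CD28 stimulation for 2 days and spent the next 36 h in the medium. The media were fresh medium lacking methionine, fresh medium containing it (complete fresh medium), medium conditioned by the mouse melanoma line B16F10 (plain supernatant), and that supernatant after methionine had been added (supplemented supernatant). Strain, activation and culture time were the same in all groups. How much methionine was added, how much the plain supernatant still held, and what else the tumour cells had consumed or released are not given in the labels, so the contrast compares absence with presence in fresh medium and no addition with addition in supernatant. Nothing in the labels ties replicates to separate animals or cultures, so p-values measure the spread between libraries, which may be technical.

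Methionine is an essential amino acid, needed both for protein and as the precursor of S-adenosylmethionine, the donor of methyl groups for DNA, RNA and histones. When a cell lacks an amino acid, uncharged transfer RNA activates the kinase GCN2, which slows translation and lets the transcription factor ATF4 accumulate; ATF4 then drives genes of amino acid uptake and synthesis. CD8+ T cells that have been activated and are dividing take up methionine through transporters of large neutral amino acids.

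Recovered reads ran from 25.8 to 42.3 M per library. The 5 CD8 T cell markers measured, genes of the CD3 complex and CD8 chains, summed to 67240 to 93980 depth-normalized reads in every library. Markers of other cells were lower: 8 melanoma genes summed to between 107.6 and 335.2 reads, 7 B cell genes to between 383.5 and 984 and 8 myeloid genes to between 340.3 and 773.7. The 8 CD4 T cell genes summed to between 6153 and 7962 reads and the 7 NK cell genes, several of which activated CD8+ T cells also express, to between 19550 and 29040. Most of the CD4 sum came from Zbtb7b, Ikzf2 and Gata3, while Cd4 itself read 134.2 to 200.2. No marker counted was at 0 in all libraries. The melanoma sum was not higher in supernatant (268.6 to 296.7 reads plain and 107.6 to 158.4 supplemented, against 293.9 to 335.2 and 117.8 to 142.5 in fresh medium without and with methionine). The CD4 sum in supplemented supernatant (6153 to 6375) lay below that in the other media and the NK sum (27310 to 29040) above it. The part of these cells in the results was not tested, and in such bulk RNA fewer cells of a type and less RNA per cell cannot be told apart.

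The responses of the 2 media ran in the same direction for most genes and were smaller in supernatant. Methionine changed 10672 genes in fresh medium (85.6% of those tested) and 10433 in supernatant (83.7%), by limma with Benjamini-Hochberg adjusted p below 0.05. Of 9431 genes called in both, 8846 moved the same way and 585 (6.20%) the opposite way. Across all 12469 genes, which are not independent replicates, the supernatant response had a slope of 0.788 on the fresh response (Pearson r 0.895, Spearman rho 0.879), and no library enters both responses. The SD of the responses over genes was 1.11 in fresh medium and 0.981 in supernatant. Of the 8846 genes called in both media with the same sign, 5579 (63.1%) had the smaller response in supernatant. This share depends on how genes are chosen: it was 77.9% (2691 of 3454) among genes with a fresh response of at least 2-fold. Of 2785 genes with a supernatant response of at least 2-fold, 1256 (45.1%) had the smaller response in fresh medium. Only 26 of the 3454 were called in the opposite direction in supernatant.

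The interaction was called for 6557 genes (52.6% of those tested), 3438 positive (27.6%) and 3119 negative (25.0%). Most of these differences were modest, since 1661 reached 1.5-fold and 601 reached 2-fold. With each library scaled by its total reads the share of positive calls was 57.5% in place of 52.4%. Genes that changed the size of their response were the largest class: 3135 (25.1% of those tested) responded in the same direction but less in supernatant, and 1326 (10.6%) in the same direction but more. Another 851 (6.82%) were called in fresh medium alone, 634 (5.08%) in supernatant alone and 26 (0.209%) in neither. For the genes called in 1 medium, the interaction is the test of the difference. The remaining 585 (4.69%) changed direction, of which 325 (2.61% of those tested) fell with methionine in fresh medium and rose in supernatant, and 260 (2.09%) did the reverse.

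**Figure D1:**
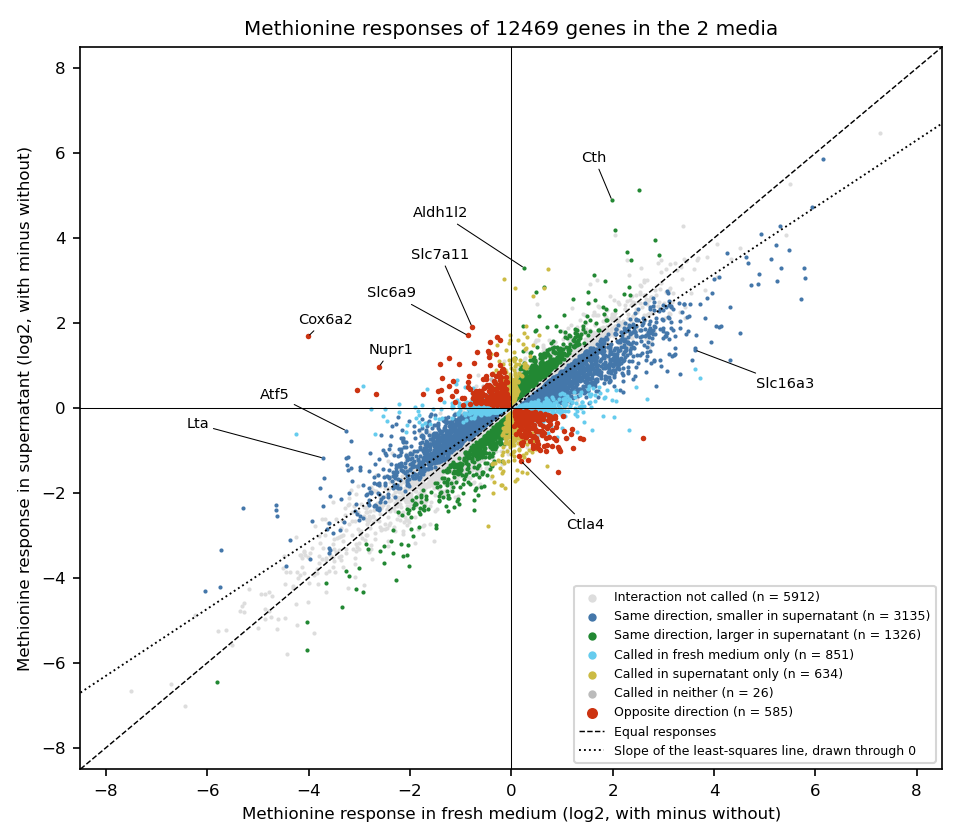
Each of the 12469 tested genes is a point, with its methionine response in fresh medium on the x axis and in supernatant on the y axis (log2, with minus without), coloured by class. Points spread along a line flatter than equality (slope 0.788), and the 585 genes that changed direction fill the upper left and lower right of the plot, mostly close to the centre.

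Changes of direction were mostly small. The median absolute response of the 585 genes was 0.253 in fresh medium and 0.241 in supernatant (log2), against 1.0 and 0.587 for the genes with a smaller response. Only 34 of them had a response of at least 1.5-fold in both media, 13 rising and 21 falling in supernatant, and 4 reached 2-fold in both. Small opposite responses depend on where 0 lies. Scaling by total reads moved the median response of all genes to -0.169 in fresh medium and -0.137 in supernatant, from -0.00919 and -0.00406, and kept the class for 291 of the 585 genes. Quantile normalization kept it for 450 and TMM scaling for 577, and 255 (43.6%; 140 rising and 115 falling in supernatant) kept it under all 3. The median of the smaller of the 2 responses was 0.262 for the genes that kept the class and 0.143 for those that lost it. Of the 34 genes with larger responses, 29 still changed direction under total-read scaling, 23 under quantile normalization and 34 under TMM scaling. These counts did not require 1.5-fold again. The 9 direction-changing genes taken up singly (Nupr1, Slc7a11, Slc6a9, Cox6a2, Ccdc164, Tubb6, Fam71f2, Tlr12 and Igsf5) changed direction under each of these scalings. Of the 68 reported genes that the naming rule picked and that had a called interaction, 20 were not called in the deposited FPKM table fitted without a replicate term: Srm, Cox7b, Cox6b1, Mcm2, Cdc6, Ppan, Gnl3, Osgin1, Lag3, Id3, Cd5, Gbp4, Per1, Tiparp, Prmt5, Stat5a, Stat5b, Dot1l, Il2ra and Bcl2. With a replicate block in that table, 1 of the 68, Dot1l, was not called. Slc7a11, Agap1, Ahrr and P2rx3, also among the 68, were not tested in either fit of that table.

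The genes with the largest opposite responses that rose in supernatant included a stress regulator and 2 amino acid transporters. Nupr1, a small chromatin-associated protein induced by stress, lies on chromosome 7 from 126623249 to 126630861 (GRCm38, minus strand). It read 553, 592, 515 and 579 in fresh medium lacking methionine and 92.8, 80.4, 93.6 and 97.6 in complete fresh medium. In plain supernatant it read 553, 571, 524 and 489, and in supplemented supernatant 1073, 1024, 1069 and 1033. The 2 groups without methionine overlapped, while complete fresh medium lay below and supplemented supernatant above every other library. The response of Nupr1 was -2.61 in fresh medium and 0.97 in supernatant (log2), an interaction of 3.58 ± 0.0991 (SE; limma adjusted p 3.15e-24).

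Slc7a11, which imports cystine in exchange for glutamate and lies on chromosome 3 from 49892526 to 50443614 (minus strand), had the same highest and lowest groups. Its values were 148, 159, 146 and 143 without methionine and 103, 91.7, 87.3 and 67.9 with it in fresh medium. In supernatant they were 198, 149, 172 and 187 without and 591, 698, 681 and 691 with methionine. Again the media overlapped only without methionine, and the responses were -0.77 and 1.91 (interaction 2.69, adjusted p 4.56e-16). Slc6a9, a glycine importer on chromosome 4 (117834506 to 117875198, plus strand), read 832, 889, 904 and 914 and then 523, 533, 513 and 398 in fresh medium. Its supernatant values were 962, 982, 894 and 949 without methionine and 3177, 3047, 3210 and 2950 with it. The interaction of Slc6a9 was 2.56 (adjusted p 1.12e-21).

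Cox6a2, a cytochrome c oxidase subunit best known from heart and skeletal muscle, had the largest opposite responses of the named genes, from low counts. It fell from 128 ± 25.9 to 7.65 ± 3.76 reads in fresh medium and rose from 128 ± 23.5 to 413 ± 39.8 in supernatant (SD, n = 4). Its lowest library, in complete fresh medium, held 2.61 reads, so the fresh response of -4.01 depends on the added 1. Ccdc164, a coiled-coil protein gene, went from 290 ± 14.1 to 109 ± 14.4 reads in fresh medium and from 314 ± 20.1 to 643 ± 37.4 in supernatant (SD, n = 4; interaction 2.45, adjusted p 1.51e-17).

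The 4 genes named here that did the reverse rose in fresh medium and fell in supernatant. Tubb6, a beta tubulin, read 2068, 2216, 1967 and 2217 without methionine and 4059, 3802, 4035 and 3733 with it in fresh medium. In plain supernatant it read 2079, 2296, 2142 and 2150, overlapping the fresh libraries without methionine, and in supplemented supernatant 1260, 1394, 1313 and 1197, below all others. Its responses were 0.88 and -0.75 (interaction -1.63, adjusted p 4.03e-20). Fam71f2 read 190, 165, 207 and 127 without methionine and 430, 468, 410 and 441 with it in fresh medium. In supernatant it read 193, 224, 224 and 195 without and 126, 118, 120 and 142 with methionine. The media overlapped only without methionine, and complete fresh medium lay above every other library. The interactions of Fam71f2 (-2.08), of the Toll-like receptor gene Tlr12 (-1.58) and of the adhesion protein gene Igsf5 (-1.78) rested on group means between 75.7 and 437 reads.

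Most of the difference between the media lay on the side with methionine. The interaction is also the supernatant-minus-fresh difference with methionine less the same difference without it, from the same libraries. With methionine 8106 genes (65.0%) differed between the media, and without it 3344 (26.8%). Among the 6557 genes with an interaction, the absolute difference between media was the larger one with methionine in 5539 (84.5%). Its median was 0.329 with methionine and 0.0904 without (log2). Of the 601 genes with an interaction of at least 2-fold, 552 (91.8%) differed more with methionine, and 513 differed by less than 1.5-fold between plain supernatant and fresh medium lacking methionine.

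**Figure D2:**
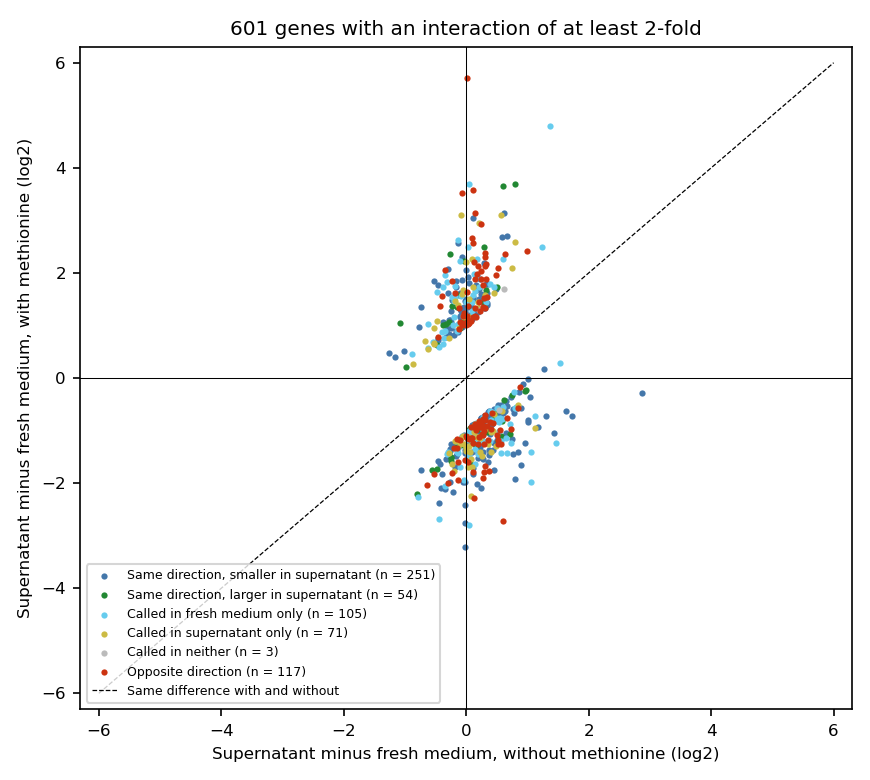
Each point is 1 of the 601 genes with an interaction of at least 2-fold, placed by the supernatant-minus-fresh difference without methionine (x axis, log2) and with it (y axis, log2), and coloured by class. The points form a narrow upright band around an x value of 0, and 552 of them lie farther from 0 on the y axis than on the x axis.

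Nearly all genes of the ATF4 amino acid response differed between the media, with a higher response in supernatant. Of 33 members tested, 32 were called, 31 positive and 1 negative (background 52.6%, 27.6% and 25.0%), and 8 changed direction (background 4.69%). The median member response was -0.45 in fresh medium and 0.75 in supernatant, and the median interaction 1.05, against 0.0115 over all genes tested. From the deposited FPKM values without a replicate term, 21 members were called, and Slc7a11 was not tested there. The exception in sign was Ddit4, an inhibitor of mTORC1 (interaction -0.70), and Vldlr, a lipoprotein receptor, was not called (adjusted p 0.075).

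The members did not move as a block: 7 had a smaller response in supernatant, 5 were called in fresh medium alone, 8 changed direction, 10 had a larger response and 2 were called in supernatant alone. The regulators given here as examples fell in fresh medium. Trib3, a pseudokinase that dampens ATF4 signalling, read 11883, 12137, 12650 and 12179 without methionine and 2385, 2173, 2099 and 2098 with it in fresh medium. In supernatant it read 12776, 12009, 12158 and 13017 without and 11951, 12407, 13134 and 11672 with methionine. Complete fresh medium alone stood apart and the other 3 groups overlapped. The response was -2.48 in fresh medium and -0.02 in supernatant (adjusted p 0.56), with an interaction of 2.46 (adjusted p 5.34e-27). Under total-read scaling and quantile normalization a small supernatant fall of Trib3 was called, which makes it a smaller response. Ddit3, the proapoptotic factor CHOP, fell from 3733 ± 94.0 to 796 ± 40.3 reads in fresh medium and from 3313 ± 93.6 to 2859 ± 128 in supernatant (SD, n = 4; interaction 2.02). Atf5, a related factor, fell (-3.25 and -0.53, interaction 2.72, adjusted p 4.25e-24). Sesn2 (-2.27 in fresh medium, -0.37 in supernatant), a stress-induced inhibitor of mTORC1, and Cebpb (-2.56 and -0.64), a partner of ATF4, also fell less. The Atf4 transcript itself fell by 0.74 in fresh medium and stood at -0.03 in supernatant, and the factor is known to be controlled mainly at translation.

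The 20 members that changed direction, had a larger response or were called in supernatant alone all rose with methionine in supernatant. The smallest of these rises was that of Aldh18a1, an enzyme of proline synthesis (-0.96 in fresh medium and 0.07 in supernatant). Its supernatant rise was not called under total-read scaling, and quantile normalization gave a called fall. Asns, asparagine synthetase, read 8070, 8069, 7849 and 8125 and, with methionine, 7237, 6902, 7040 and 7046 in fresh medium. The supernatant values were 9498, 9473, 9535 and 9176 without and 17050, 16985, 17856 and 16911 with methionine. No 2 groups overlapped, and the small fall in fresh medium (-0.19) and the rise in supernatant (0.87) gave an interaction of 1.05 (adjusted p 5.83e-21). Chac1, which degrades glutathione, also changed direction (-0.45 and 1.34). Aldh1l2, a mitochondrial folate enzyme, read 132, 162, 140 and 106 and then 168, 145, 170 and 156 in fresh medium, where the groups overlapped. It read 226, 215, 192 and 185 in plain and 2094, 1903, 1941 and 2114 in supplemented supernatant, far above the rest. Its interaction was 3.04 (adjusted p 7.74e-19), but its fresh response of 0.26 was no longer called without replicate 3 of fresh medium lacking methionine, under total-read scaling or quantile normalization, on the square-root scale or in the FPKM table, which would place it among genes called in supernatant alone. Cth, the enzyme that makes cysteine from cystathionine, rose from 31.7 ± 8.67 to 125 ± 9.26 reads in fresh medium and from 54.2 ± 4.02 to 1637 ± 85.0 in supernatant (SD, n = 4; interaction 2.91, adjusted p 2.96e-14). Among enzymes of serine and folate metabolism, Shmt2 (0.08 and 1.17), Mthfd2 (0.06 and 1.11), Phgdh (0.47 and 1.08) and Psat1 (0.30 and 0.86) had responses in this order, fresh and then supernatant.

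**Figure D3:**
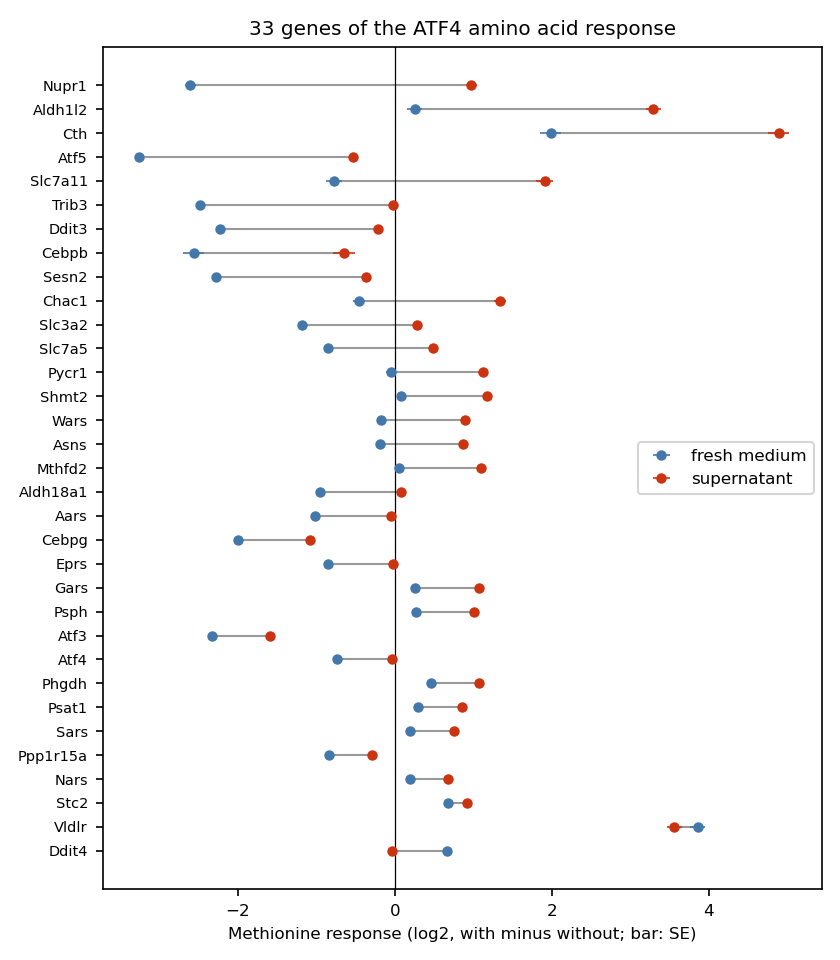
Methionine responses of the 33 tested members of the ATF4 amino acid response list (log2, with minus without; bars are SE), fresh medium in blue and supernatant in red, joined by a line per gene and ordered by the interaction. The red point lies to the right of the blue one for every gene but Vldlr and Ddit4.

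Promoters of this list were searched for the letters of the C/EBP-ATF composite element, TGATGNAAT on either strand, in the 250 bases before each gene's RefSeq start (GRCm38.p6). Of 32851 promoters of this length 268 (0.816%) held it, and of 9900 tested genes matched by symbol 46 (0.465%) did. In the ATF4 list 4 of 28 matched members (14.3%) held it, and their sequences are shown because they fell in 4 different classes of the interaction. They are Nupr1 (changed direction), Aars, alanyl-tRNA synthetase (called in fresh medium only), Gars, glycyl-tRNA synthetase (larger in supernatant), and Pycr1, an enzyme of proline synthesis (called in supernatant only). Each is printed 5′ to 3′ on the strand of its gene, with the element in capitals. The stretches are chr7:126625548-126625606 on the minus strand for Nupr1, chr8:111033704-111033762 on the plus strand for Aars, chr6:55037945-55038000 on the plus strand for Gars and chr11:120643818-120643876 on the minus strand for Pycr1.
Nupr1: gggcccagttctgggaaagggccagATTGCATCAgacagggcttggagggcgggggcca
Aars: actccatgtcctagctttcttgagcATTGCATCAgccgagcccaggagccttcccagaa
Gars: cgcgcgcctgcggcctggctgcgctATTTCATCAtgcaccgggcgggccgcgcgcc
Pycr1: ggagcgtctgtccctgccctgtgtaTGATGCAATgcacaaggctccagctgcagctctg
The element of Pycr1 is the reverse complement of the one in Nupr1 and Aars, so these 3 carry the same element, while that of Gars differs. The start used for a promoter is that of RefSeq's entry. For Nupr1, Aars and Pycr1 it lies inside the span of the gene as annotated, which covers other starts. The responses were -2.61 and 0.97 for Nupr1 and -1.01 and -0.05 for Aars, in fresh medium and in supernatant. The responses of Gars were 0.25 and 1.07, and those of Pycr1 -0.04 and 1.12. Among the 465 matched genes that changed direction, 3 (0.645%) held the letters. A match describes the sequence and is not a site of binding, and no match says only that these letters were not in this window.

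Of 17 amino acid transporter genes, 14 were called, 11 positive and 3 negative (background 52.6%, 27.6% and 25.0%), and 7 changed direction (background 4.69%). Their median response was -0.31 in fresh medium and 0.45 in supernatant, and 3 of the 7 (Slc7a5, Slc3a2 and Slc7a11) are also on the ATF4 list. Slc7a5, the light chain of the LAT1 transporter of large neutral amino acids, read 24542, 24489, 25476 and 25637 and, with methionine, 14233, 15127, 13508 and 12539 in fresh medium. In supernatant it read 24895, 27098, 24245 and 25812 without and 36879, 36762, 35063 and 34285 with methionine. The groups without methionine overlapped, and methionine moved the gene down in one medium and up in the other (-0.86 and 0.49, interaction 1.34, adjusted p 2.3e-19). Its partner Slc3a2 went the same way (-1.18 and 0.29), as did Slc7a3 (-0.27 and 1.68), which carries cationic amino acids, and Slc38a1 (-0.11 and 0.45), which carries glutamine. Slc7a1 (-0.70 and 0.27) lost its supernatant call, and with it the class, under quantile normalization. Slc1a4, a carrier of alanine, serine and cysteine, read between 752 and 907 in the 2 fresh groups, 874 to 947 in plain and 2608 to 2901 in supplemented supernatant (interaction 1.63, adjusted p 5.64e-18), and under total-read scaling it changed direction. Slc43a2, a carrier of large neutral amino acids including methionine, rose in both media, by less in supernatant (1.77 and 1.15, interaction -0.63, adjusted p 2.09e-11).

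Genes of the methionine cycle and salvage had 11 interactions among 16 tested members, all positive (background 27.6%). Mat2a, which makes S-adenosylmethionine, fell in both media and by less in supernatant. Its libraries read 34711, 36002, 35866 and 35085 and then 6599, 6652, 6578 and 6716 in fresh medium. In supernatant they read 36170, 35856, 36007 and 35008 without and 11236, 11092, 11488 and 11936 with methionine, so the groups overlapped only where no methionine had been added (interaction 0.77, adjusted p 1.26e-17). Srm, spermidine synthase, fell (-1.39 and -0.59), as did Odc1, the first enzyme of polyamine synthesis (-1.18 and -0.66). Ahcy, which removes S-adenosylhomocysteine, rose by 2.23 in fresh medium and by 2.68 in supernatant.

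Most genes of sterol, sugar and oxygen-related metabolism rose with methionine in both media and by less in supernatant. All 24 cholesterol synthesis genes tested had a negative interaction (background 25.0%), 22 of them with a smaller rise, and the median response was 2.45 in fresh medium and 1.38 in supernatant. Hmgcs1, which makes the first committed precursor of the mevalonate pathway, read 1297, 1256, 1287 and 1369 and then 18088, 17016, 18211 and 20081 in fresh medium. It read 2004, 2084, 2079 and 1962 in plain and 8853, 10164, 8403 and 8318 in supplemented supernatant. The 4 groups did not overlap, plain supernatant lay above fresh medium lacking methionine and supplemented supernatant below complete fresh medium, and the interaction was -1.68 (adjusted p 4.75e-20). In fatty acid synthesis 13 of 18 members had a negative interaction and 1 a positive one. The desaturase gene Scd1 (3.64 and 1.72) and the acetyl-CoA synthetase gene Acss2 (2.41 and 1.24) had the largest among those of at least 100 reads.

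Of 20 glycolysis genes, 18 had a negative and 1 a positive interaction (background 25.0% and 27.6%). The medians were 2.31 in fresh medium and 1.19 in supernatant. Slc16a3, the lactate exporter MCT4, read 1109, 907, 960 and 1024 and then 12424, 12613, 12561 and 11732 in fresh medium. In supernatant it read 1818, 1840, 1772 and 1774 without and 4697, 4499, 4930 and 4457 with methionine. As with Hmgcs1, supernatant was higher without methionine and lower with it, and the interaction was -2.26 (adjusted p 3.15e-24). The aldolase gene Aldoc rose by 5.32 and by 3.31, and Slc2a3, a glucose importer, by 2.82 and by 1.11. The hypoxia response list gave 17 negative and 1 positive interactions among 20 members (medians 2.06 and 1.18). Egln3, a prolyl hydroxylase that marks hypoxia-inducible factors for degradation, rose from 1899 ± 25.3 to 16362 ± 879 reads in fresh medium and from 2232 ± 118 to 6940 ± 1121 in supernatant (SD, n = 4; interaction -1.48). Ankrd37, another target of these factors, rose by 2.81 and by 1.14. Hif1a itself had no called interaction (-0.27 and -0.36). The nuclear respiratory chain list, at 21 of 44 called (47.7%), lay below the background of 52.6%. In it Cox6b1 (1.29 and 0.72) and Cox7b (0.76 and 0.16), both subunits of cytochrome c oxidase, had the largest differences among called members of at least 100 reads. Total-read scaling left Cox7b with a call in fresh medium alone. Cox6a2, described above, was not on this list.

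Most ribosome biogenesis genes fell less with methionine in supernatant. All 26 called of 30 tested had a positive interaction (background 27.6%), and the median response was -0.71 in fresh medium and -0.19 in supernatant. Ppan, which takes part in maturation of the large ribosomal subunit, went from 3027 ± 58.2 to 1488 ± 106 reads in fresh medium and from 3366 ± 115 to 3034 ± 84.5 in supernatant (SD, n = 4; interaction 0.88, adjusted p 1.62e-14). Gnl3, the nucleolar protein nucleostemin, fell (-1.17 and -0.29). Myc, a factor known to drive such genes, fell (-1.41 and -0.57). Of the 3 members that changed direction, Nop58 and Bop1 lost that class under total-read and under quantile scaling, while Nat10 (-0.12 and 0.25) kept it.

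**Figure D4:**
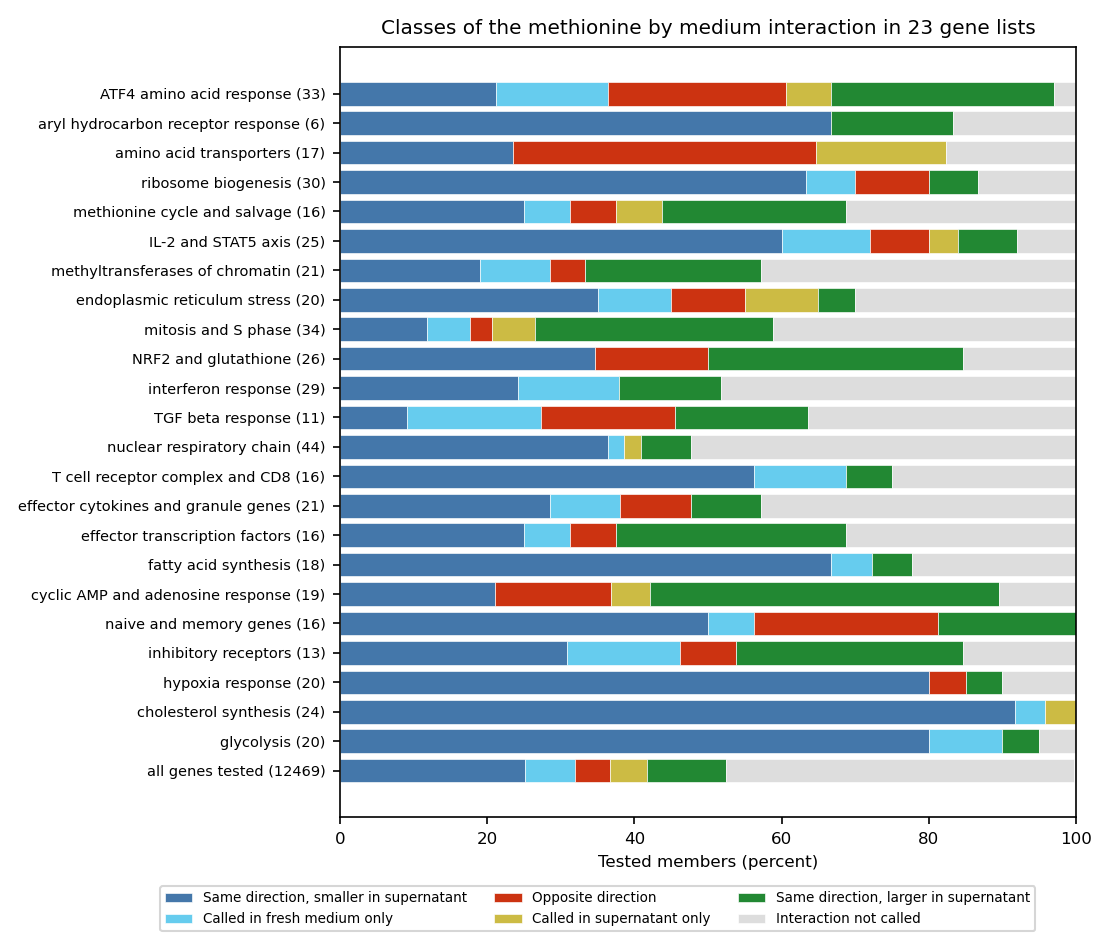
For each of 23 gene lists and for all 12469 genes tested (bottom bar), the share of tested members in each class of the interaction, in percent, with the number tested in brackets. Blue, a response in the same direction that is smaller in supernatant, fills most of the bars of cholesterol synthesis, glycolysis and the hypoxia response, and red, opposite direction, is widest for amino acid transporters.

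The interleukin 2 and STAT5 axis held genes of both signs. Of 25 members, 23 were called, 14 positive and 9 negative (background 52.6%, 27.6% and 25.0%). A smaller response in supernatant was found for 15 (background 25.1%). Cish, a feedback inhibitor induced by STAT5, read 19875, 19205, 19030 and 19138 and then 3030, 3339, 3253 and 3113 in fresh medium. It read 19874, 22218, 20948 and 20731 in plain and 9532, 9239, 8521 and 8893 in supplemented supernatant. The groups without methionine met at 19874 and 19875, and the interaction was 1.39 (adjusted p 3.5e-21). Socs1 (-2.22 and -0.96), Socs2 (-1.33 and -0.30), the kinase gene Pim1 (-1.53 and -0.66) and the survival gene Bcl2l1 (-1.80 and -0.82) fell less in supernatant too. Stat5b rose by 1.0 and by 0.66 (interaction -0.34, adjusted p 2.46e-08), and Stat5a rose by 0.22 in fresh medium and stood at 0.02 in supernatant (interaction -0.21, adjusted p 0.000506). Under total-read scaling Stat5a was called in supernatant alone, and from FPKM neither gene had a called interaction (adjusted p 0.643 for Stat5a and 0.185 for Stat5b). Bcl6, a repressor that opposes STAT5, rose by 2.02 and by 0.51.

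The receptor chains did not move together. Il2ra, the alpha chain CD25, read 34105, 33596, 33082 and 33189 and then 53932, 53328, 52720 and 53684 in fresh medium. In supernatant it read 34681, 35441, 35525 and 34290 without and 80637, 80661, 80188 and 82765 with methionine. All 4 groups were separate, and the interaction was 0.54 (adjusted p 3.85e-14). The beta chain gene Il2rb changed direction (0.21 and -0.32), but was called in supernatant alone under total-read scaling and fell in both media under quantile normalization. The common gamma chain gene Il2rg (-0.30 and -0.37) had no called interaction. Bcl2, an inhibitor of apoptosis, read 17118, 17542, 17103 and 16966 and then 17406, 18263, 17248 and 18423 in fresh medium, where the groups overlapped. It read 19299, 18243, 19103 and 19391 in plain and 30706, 30712, 28859 and 31843 in supplemented supernatant (interaction 0.63, adjusted p 5.05e-14), and total-read scaling and quantile normalization made it a change of direction. Il2ra and Bcl2 both lost their call in the FPKM table without a replicate term (adjusted p 0.275 for Il2ra and 0.112 for Bcl2).

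**Figure D5:**
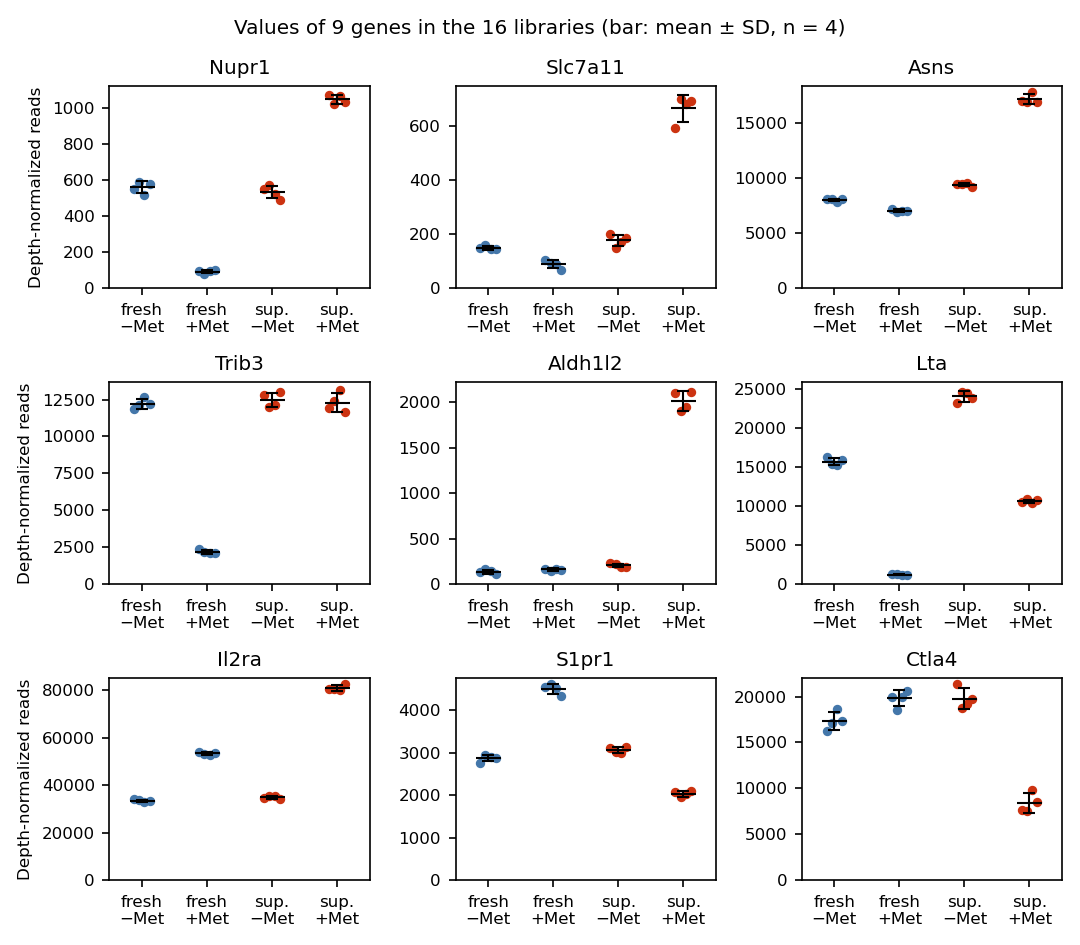
Depth-normalized reads of 9 genes in each of the 16 libraries (points), with the mean and SD of each group of 4 (bars), fresh medium in blue and supernatant in red, without and with methionine. Supplemented supernatant is the highest group for Nupr1, Slc7a11, Asns, Aldh1l2 and Il2ra and the lowest for S1pr1 and Ctla4, while complete fresh medium is the group that stands apart for Trib3 and the lowest for Lta.

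Effector cytokine genes did not share 1 pattern. Of 21 members tested 12 were called (57.1%, against 52.6%), 4 positive and 8 negative (background 27.6% and 25.0%). Lta, lymphotoxin alpha, read 16300, 15423, 15212 and 15866 and then 1239, 1243, 1204 and 1119 in fresh medium. Its supernatant values were 23158, 24669, 24434 and 23894 without and 10526, 10835, 10407 and 10704 with methionine. Supernatant was higher on both sides and the 4 groups were separate, with responses of -3.71 in fresh medium and -1.18 in supernatant and an interaction of 2.53 (adjusted p 3.77e-29). The neighbouring gene Tnf, tumour necrosis factor, fell (-2.16 and -0.51, interaction 1.66). Ifng, interferon gamma, fell (-3.66 and -3.53), from 916 ± 50.9 to 71.9 ± 9.15 reads and from 1548 ± 108 to 133 ± 9.87 reads (SD, n = 4). Its interaction of 0.13 on the log2 scale was not called (adjusted p 0.37), and on the square-root scale, where differences at high levels weigh more, it was called with the opposite sign (adjusted p 5.39e-08). Gzmb, granzyme B, rose by 0.38 and by 0.48 (interaction 0.10, adjusted p 0.0794). It was called under total-read scaling and edgeR, among others, and quantile normalization made it a called change of direction. Gzma (2.41 and 1.55) and Gzmk (2.67 and 1.22), which share sequence with other granzyme genes, rose less in supernatant, and Il24 changed direction (-0.83 and 0.75).

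Most inhibitory receptor genes rose less or fell more with methionine in supernatant. Of 13 members tested 11 were called, 10 negative and 1 positive (background 25.0% negative). Ctla4, which competes with CD28 for its ligands, read 16254, 17091, 18627 and 17322 and then 19984, 18559, 19999 and 20629 in fresh medium. It read 21317, 18758, 19215 and 19773 in plain and 7598, 7515, 9837 and 8485 in supplemented supernatant. The fresh groups overlapped at 18559 and 18627 reads, and supplemented supernatant lay below every other library. The interaction was -1.44 (adjusted p 8.41e-17), but the small fresh rise of 0.19 was not called under total-read or quantile scaling or in the FPKM table, which leaves a call in supernatant alone. Pdcd1, the receptor PD-1, fell (-0.38 and -1.32), and Lag3 rose by 1.75 and by 0.79.

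All 16 genes of naive and memory T cells had an interaction, 13 negative and 3 positive (background 52.6%, 25.0% and 27.6%). A change of direction was found for 4 (background 4.69%). S1pr1, the receptor that guides T cells out of lymphoid tissue, read 2764, 2945, 2905 and 2870 and then 4550, 4616, 4512 and 4333 in fresh medium. In supernatant it read 3120, 3009, 2999 and 3138 without and 2069, 1944, 2018 and 2103 with methionine. No groups overlapped, and its response was 0.65 in fresh medium and -0.59 in supernatant (interaction -1.24, adjusted p 2.54e-20). Foxo1, a factor that drives naive T cell genes, did the same (0.37 and -0.34). Tcf7 (1.39 and 0.74), Ccr7 (0.75 and 0.12) and Id3 (1.53 and 0.69) rose less in supernatant. Cxcr3 (0.15 and -0.54) lost the change of direction under total-read scaling.

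Genes of T cell activation signals gave mixed results. Over all genes tested 52.6% were called, 25.0% negative and 27.6% positive. In the T cell receptor list 12 of 16 were called, 8 negative and 4 positive. Cd5, an inhibitor of receptor signals, read 3431, 3682, 3549 and 3572 and then 5313, 5415, 5292 and 4977 in fresh medium. It read 3711, 3625, 3779 and 3879 in plain and 3944, 3827, 4201 and 3784 in supplemented supernatant. Complete fresh medium lay above every other library and the supernatant groups overlapped, with responses of 0.56 and 0.07 (interaction -0.49, adjusted p 6.13e-10). Of 16 effector transcription factor genes 11 were called, 8 negative and 3 positive, among them Egr1, an early factor, which fell (-3.57 and -2.08), and Prdm1, the factor BLIMP-1, which rose by 0.73 in fresh medium and stood at -0.04 in supernatant (interaction -0.77), a fall that total-read scaling called. Most genes known to respond to cyclic AMP and adenosine had a lower response in supernatant: 14 of 19 had a negative and 3 a positive interaction. A larger response of the same sign was found for 9 (background 10.6%). Rgs16, a regulator of G protein signals, read 1247, 1227, 1222 and 1196 and then 312, 364, 297 and 296 in fresh medium. It read 2028, 2143, 2053 and 1968 in plain and 279, 227, 258 and 255 in supplemented supernatant, the highest and the lowest group (interaction -1.06, adjusted p 9.25e-12). Rgs1 (-2.60 and -3.36) and Nr4a1 (-0.93 and -1.68) went the same way, and the clock gene Per1 changed direction (0.73 and -0.16), though FPKM values gave its interaction no call (adjusted p 0.147).

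The remaining genes named by rank lay outside these lists. Among genes with a smaller response, the integrin gene Itga7 rose by 4.51 and by 1.77 (interaction -2.74), and Agap1, a regulator of small GTPases, fell from 402 ± 42.4 to 9.60 ± 3.05 reads in fresh medium and from 431 ± 23.7 to 84.1 ± 10.9 in supernatant (SD, n = 4; interaction 2.94). Larger responses in supernatant were found for Reep6 (0.48 and 2.74), a protein of the endoplasmic reticulum membrane, for Cables1 (-0.48 and -1.57), which links cyclin-dependent kinases to Abl, and for Xdh (-0.19 and -1.25), xanthine dehydrogenase. Kit, the receptor of stem cell factor, rose from 137 ± 14.7 to 408 ± 33.9 reads in fresh medium, and stood at 199 ± 20.2 and 202 ± 16.6 in supernatant (SD, n = 4; interaction -1.55). Usp27x, a deubiquitinase gene, fell by 2.53 in fresh medium, and its supernatant response of -0.20 had an adjusted p of 0.05, so that leaving out any of several libraries made it a smaller response instead. In supernatant alone, P2rx3, an ATP-gated channel gene, rose from 54.7 ± 8.49 to 388 ± 30.2 reads and Tbc1d4, a regulator of glucose transporter traffic, fell from 726 ± 48.7 to 230 ± 25.1 (SD, n = 4). Without replicate 1 of complete fresh medium, Tbc1d4 was called in fresh medium too, with the opposite sign.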

How the data were processed

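RNA from 16 libraries of mouse CD8+ T cells, 4 per medium, was sequenced. The builds mm10 and GRCm38 are named, per the submitters' processing notes, beside Cuffdiff (version 2.2.1), Cufflinks, TopHat2 (2.0.13), Bowtie2 (2.2.1) and FastQC (0.11.3). The counting tool and its use of strand are not given in the sources used here, so overlapping, antisense and close paralogous genes may share reads. The deposited signal per gene is a depth-normalized count. Multiplied by a library's factor, 100% of these values were whole reads within a tolerance of 0.001, and the reads of a library summed to 25.8 to 42.3 M. A second table that the authors deposited holds FPKM, used as an alternative only.

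Values were taken as log2(signal + 1), which understates folds of low genes, for genes averaging at least 10. A fit of 4 group means used limma (version 3.58.1, in R 4.3.3) with its trend option. The two-sided tests had Benjamini-Hochberg adjustment over 12469 genes at 0.05. A gene changed direction if the interaction and both responses were called with opposite signs, and changed size if their signs were equal. On simulated counts of the interaction over 12469 genes, 100 genes were given a 1.5-fold and 100 a 2-fold interaction. Of these, 98.0% and 99.0% were recovered. What share would be recovered among genes with a mean below 100 reads was not tested. Libraries of 1 group differed by more than counting error, with a mean chi-square per gene of 2.58 to 9.01 over 24 pairs.

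Residuals of same-numbered libraries had correlations of -0.067 to 0.068 over 24 pairs, so no block was used. In the FPKM table they were 0.135 to 0.635 over 10944 genes, so that table was also fitted with a replicate block, chosen after the data were seen.

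Members, gene lists and tests were chosen with earlier results of these data known. Named genes (means from 100 reads) are the 5 of each pattern of opposite responses with the largest smaller response. For smaller and for larger responses, split by direction, the 3 with the largest interaction were named. Genes called in fresh medium alone and in supernatant alone gave 3 each, not split by direction. The 2 largest of each list and 12 fixed genes were also named. Other list members were chosen after their values were seen, as examples. Some genes picked by this rule are not reported here. Alternatives were scalings, added constants, filters, the square-root scale, robust variances, edgeR 4.0.16 and DESeq2 1.42.0 on recovered reads of 15 libraries, a replicate block, FPKM and each library left out. The count tests left out replicate 1 of fresh medium lacking methionine, because its factor is close to 1.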

Additional observations from a re-analysis of the deposited data

Results flagged for a closer look

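The difference between media was itself tested for every gene, and 6557 genes had a methionine response that differed between them, 585 with a change of direction. The 9 direction-changing genes taken up singly had interactions of 5.70 for Cox6a2, 3.58 for Nupr1, 2.69 for Slc7a11, 2.56 for Slc6a9 and 2.45 for Ccdc164, which rose with methionine in supernatant, and of -1.58 for Tlr12, -1.63 for Tubb6, -1.78 for Igsf5 and -2.08 for Fam71f2, which fell there. The other named genes with a called interaction meet the same condition and are described in the report.

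In 9 of 280 groups of 4 libraries, 1 library of a named gene lay far from the other 3 (by Dixon's criterion at 95%), where chance flags about 1 in 20 groups. Replicate 3 of complete fresh medium was the lowest of its group for Slc6a9 (398.1 reads, the highest being 533.4) and for Atf5 (256.9, highest 275.3). Replicate 0 of supplemented supernatant was low for Slc7a11 (590.7, highest 698.5), replicate 1 was high for Kit (226.3, lowest 190.5), replicate 2 was high for Asns (17856, lowest 16911) and replicate 3 was low for Ppan (2909, highest 3087). Replicate 3 of plain supernatant was low for Cox6b1 (2722, highest 2956) and replicate 0 for Slc43a2 (966.3, highest 1057). Replicate 0 of fresh medium lacking methionine was low for Cdc6 (3801, highest 3887). No named gene lost its interaction when 1 library was left out.

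The FPKM table holds 99 tested genes with no value in the first table, and 12 of them had a called interaction with the replicate block and 1 without it.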

How the results depend on the processing

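The interaction was called for 6557 genes, with 585 changes of direction and 4461 of size (3135 smaller and 1326 larger in supernatant). With a replicate block the counts were 6521, 577, 4430, 3127 and 1303, so pairing by number changed no count by over 1.5 times, and 5 of 16 libraries resembled their own number most. Leaving out each library gave 6257 to 6500 interactions, 549 to 588 changes of direction, 4205 to 4409 of size, 2982 to 3131 smaller and 1191 to 1325 larger. With edgeR 6381 genes were called and with DESeq2 6319. In the FPKM table the 5 counts were 739, 69, 386, 337 and 49, and with a replicate block there, an alternative added after seeing the data, 3848, 292, 2376, 1842 and 534. Requiring 1.5-fold in the interaction, and also in both responses for a change of direction only, left 1661, 34, 955, 789 and 166. The cause of the differences between the tables was not tested. Ifng was reversed on the square-root scale (-6.01, adjusted p 5.39e-08). Gzmb was called as a larger response under total-read scaling (0.127, adjusted p 0.0184), the square-root scale, robust variances and edgeR. The same held without replicate 0 of complete fresh medium or replicate 1 of supplemented supernatant. Quantile normalization called it as a change of direction (0.560), and in the remaining settings its adjusted p was 0.05 or more. The FPKM table did not call 20 of the 68 reported genes that the naming rule picked and that had a called interaction, and with its block 1, Dot1l (adjusted p 0.911, and 0.359 with the block). It gave no test of Slc7a11, Agap1, Ahrr and P2rx3, which are among the 68, so it does not bear on them. With a mean of at least 10 reads as filter, folds of genes near that level depend on the added 1, and no value bears on genes below it.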

Other observations

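Lists outside the main account had shares of calls from near the background of 52.6% to above it. By sign, that background was 27.6% positive and 25.0% negative. Of 26 NRF2 and glutathione genes 22 were called, 11 positive and 11 negative. The quinone reductase gene Nqo1 rose by 2.27 in fresh medium and by 3.67 in supernatant, Hmox1, heme oxygenase, by 0.18 and by 0.92, and Gclm, the regulatory subunit of glutathione synthesis, by 0.38 and by 0.96. Osgin1, an oxidative stress gene, moved the other way (-1.43 and -2.19). Of 20 genes of endoplasmic reticulum stress 14 were called, 9 positive and 5 negative. Herpud1, a component of degradation at that membrane, went from 3313 ± 82.7 to 2979 ± 92.6 reads in fresh medium and from 3154 ± 25.6 to 5971 ± 138 in supernatant (SD, n = 4), although its small fresh fall was not called in the FPKM table. Sel1l, its partner in the same pathway, changed direction (-0.61 and 0.14) but was called in fresh medium only under total-read scaling.

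Cell cycle genes rose in both media, with medians of 0.58 in fresh medium and 0.67 in supernatant. Of 34 members 20 were called (58.8%), 15 positive and 5 negative, against 52.6%, 27.6% and 25.0% over all genes tested. Mcm2, a subunit of the replicative helicase, rose by 0.57 and by 1.0, and Cdc6, which loads it, stood at -0.02 and rose by 0.35, with a change of direction under total-read scaling. Of 21 chromatin and RNA methyltransferase genes 12 were called, 10 positive and 2 negative. Prmt5, an arginine methyltransferase, changed direction (-0.17 and 0.29), an interaction not called in the FPKM table. Mettl3, which methylates adenosine in RNA, fell by 0.46 in fresh medium and stood at -0.02 in supernatant, where total-read scaling called a fall. Dot1l, the methyltransferase of lysine 79 of histone H3, fell by 0.13 in fresh medium and stood at 0.07 in supernatant (interaction 0.20, adjusted p 0.00412), a difference that was not called from FPKM. Without replicate 1 of plain supernatant its supernatant response was called too, with the opposite sign. Of 29 interferon response genes 15 were called (51.7%), 7 positive and 8 negative: Irf7, a driver of the response, rose by 0.76 in fresh medium only, and Gbp4, a guanylate-binding protein gene, fell (-0.94 and -0.31). In the TGF beta list 7 of 11 were called, 2 positive and 5 negative, and the receptor gene Tgfbr2 rose by 0.85 in fresh medium and stood at 0.03 in supernatant, with a change of direction under total-read scaling. In the aryl hydrocarbon receptor list 5 of 6 were called, 4 positive and 1 negative, with the repressor gene Ahrr (-2.52 and -1.0) and Tiparp (1.69 and 0.63) both changing less in supernatant.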
